A study of Mus musculus with 16 samples.

Results

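The 10 genes followed here are ones that glucocorticoids are known to induce, and they were compared in hearts of WT and JP2CR mice: Fkbp5, Sgk1, Tsc22d3, Zbtb16, Klf9, Ddit4, Map3k6, Slc10a6, Mt1 and Mt2. They are 10 of the 24421 entries of the count table, and all 10 were among the 13522 genes that passed the filter on low counts. The set was chosen by measured values: Fkbp5, Sgk1, Map3k6 and Slc10a6 differed between the genotypes in these counts, and the other 6 are listed with them as genes of the same hormone response. For that reason every difference between the genotypes is given below as a description, with no test. The comparison that these genotype differences do not fix is the effect of surgery averaged over the genotypes, and it carries the tests of all 10 genes. That independence needs groups of equal size, and the fits below that leave libraries out of some groups lack it. Within a single genotype the effect of surgery was tested for the other 6 genes only. Earlier results of these data were known when the 10 genes were chosen, so the tests of surgery may not be free of that choice either.

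Glucocorticoids bind the glucocorticoid receptor, which is released from a complex of heat shock proteins, enters the nucleus and switches genes on at short palindromic response elements. The induced genes feed back on the hormone, restrain growth signalling and inflammation, and bind metals, and in many tissues they serve as a readout of hormone exposure. Several of them also answer to other signals, such as hypoxia, metals, insulin or the daily clock, so their levels alone are not a measure of the hormone.

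The ventricles came from male C57BL/6N mice by label. WT littermates were compared with carriers of JP2CR, 1 knock-in line in which the codons for residues 563 to 568 of Jph2 are deleted. The labels describe the protein as resistant to the protease calpain. Surgery at 9 to 10 weeks of age was either a sham operation or trans-aortic constriction, TAC, a banding of the aorta that loads the left ventricle, and tissue was taken 5 weeks later. There were 4 libraries each of WT sham, WT TAC, JP2CR sham and JP2CR TAC, given in the series text as 4 per group. No label names the animal behind a library, and p-values therefore cover only the spread from library to library. The tissue is bulk ventricle, in which fewer cells of a type and less RNA per cell cannot be told apart.

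Some libraries stood apart. Totals ran from 9966782 to 16609732 counts, and 8 cardiomyocyte markers summed to 86260 to 110010 CPM (counts scaled to a common library total) in sham and 68393 to 74137 CPM in TAC, with no overlap. JP2CR sham 3 and JP2CR sham 4 carried 189 and 196 CPM of Xist, the RNA of the silenced X chromosome in female cells, and no counts of 4 Y-linked genes. JP2CR TAC 4 carried 141 CPM of Xist beside 118 CPM of Y-linked genes, and the other 13 libraries had at most 0.266 CPM of Xist. Among genes that differed between replicates 1 and 2 by at least 0.5 on the log2 scale, 98.1% of 569 in WT TAC, 97.3% of 475 in JP2CR TAC and 96.7% of 121 in WT sham had replicate 3 between them. In JP2CR sham this share was 37.9% of 58. Whether replicate 3 of those 3 groups is independent of replicates 1 and 2 is not known, and every n of 4, SE and p-value below assumes that it is. Atrial markers summed to 307 CPM in JP2CR sham 4 and to 2442 to 7590 CPM in the other libraries. The results that rest on the 3 libraries with Xist are given with and without them. Without them 2 JP2CR sham and 3 JP2CR TAC libraries remain. No fit left out both these libraries and the third replicates.

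RefSeq promoter windows of GRCm38.p6, the assembly also called mm10, running from 250 bases before to 50 bases after a start site, were found for 9 of the 10 genes, in 16 entries. Of these, 3 are printed 5′ to 3′. The printed Sgk1 window held a glucocorticoid response element, and those of Mt1 and Mt2 held cores of the metal response element. In the Sgk1 window at chr10:21993640-21993939 (plus strand), which lies inside the annotated span of the gene before an internal start site, the capitals mark the palindromic glucocorticoid response element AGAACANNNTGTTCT. In the windows of the neighbouring metallothionein genes, Mt1 at chr8:94178839-94179138 and Mt2 at chr8:94172368-94172667 (both plus strand), the capitals mark the core of the metal response element, TGCGCNC or TGCACNC, on either strand.
Sgk1: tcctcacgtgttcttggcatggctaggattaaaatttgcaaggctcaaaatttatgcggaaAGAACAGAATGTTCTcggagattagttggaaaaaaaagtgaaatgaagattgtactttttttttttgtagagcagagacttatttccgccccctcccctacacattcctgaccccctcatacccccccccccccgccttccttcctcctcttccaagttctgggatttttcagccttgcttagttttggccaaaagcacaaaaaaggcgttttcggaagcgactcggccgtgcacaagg
Mt1: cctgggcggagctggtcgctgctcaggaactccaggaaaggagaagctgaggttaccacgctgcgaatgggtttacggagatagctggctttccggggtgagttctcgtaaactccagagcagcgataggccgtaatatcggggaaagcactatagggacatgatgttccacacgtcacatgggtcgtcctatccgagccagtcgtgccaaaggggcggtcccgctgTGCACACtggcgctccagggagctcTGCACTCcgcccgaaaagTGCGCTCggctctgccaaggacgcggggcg
Mt2: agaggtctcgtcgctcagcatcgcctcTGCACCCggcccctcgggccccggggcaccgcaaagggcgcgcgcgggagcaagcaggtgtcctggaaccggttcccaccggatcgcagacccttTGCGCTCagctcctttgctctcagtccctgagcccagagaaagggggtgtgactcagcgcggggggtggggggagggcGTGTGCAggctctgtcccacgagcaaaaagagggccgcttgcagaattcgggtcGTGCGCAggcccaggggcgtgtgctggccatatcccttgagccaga

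The palindrome was present in 3 of 32851 such windows in the genome (0.00913%). Sgk1 was the only member with a match, in 1 of its 6 windows, where the element began 189 bases before the start site. The count table does not say which start site was used. The shorter motif AGAACA, which is contained in the palindrome, stood in 19% of all windows and in windows of Sgk1, Tsc22d3 and Slc10a6. The metal response core stood in 25.7% of all windows, with 3 matches in Mt1, 4 in Mt2 and 1 each in Ddit4 and 1 window of Sgk1. The E-box CACGTG, bound by clock proteins among others, stood in 7.15% of all windows and in windows of Fkbp5 and Sgk1. Both strands were searched, and a match describes the letters only.

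Averaged over the genotypes, TAC raised 6 of the 10 genes and lowered none (quasi-likelihood test of edgeR, p adjusted over all tested genes and under 0.05, here termed called). Of all 13522 tested genes 54.8% were called in this comparison, 27.1% higher and 27.6% lower. Mt2 rose most, by 2.18 ± 0.27 (log2 ± SE), followed by Fkbp5, Map3k6, Mt1, Ddit4 and Sgk1. The median log2 change of the 10 genes was 0.59, beside -0.01 over all tested genes. Without replicate 3 of WT sham, WT TAC and JP2CR TAC, an alternative chosen after seeing the data, 5 of the 10 were called higher (all but Sgk1, edgeR adjusted p = 0.0541) and none lower, beside 46.8% of all genes tested there. Sums of markers of other cells moved with TAC too, with no overlap and no marker at 0. From sham to TAC they went from 1301 to 1658 up to 1737 to 2504 CPM for 7 fibroblast markers. For 7 macrophage markers they went from 184 to 222 up to 251 to 314 CPM, while cardiomyocyte markers were lower as given above. Of the fibroblast markers, Col1a1 and Col3a1 were higher in TAC with no overlap and Dpt was lower with no overlap. Pdgfra, Dcn, Lum and Tcf21 overlapped between sham and TAC. Of the macrophage markers, C1qa, C1qb and Ccr2 were higher with no overlap, and Cd68, Csf1r, Adgre1 and Mrc1 overlapped. The part of all these markers in the TAC effects of the 10 genes was not tested. The level of each gene in each library is shown in the plot of CPM by group.

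**Figure D1:**
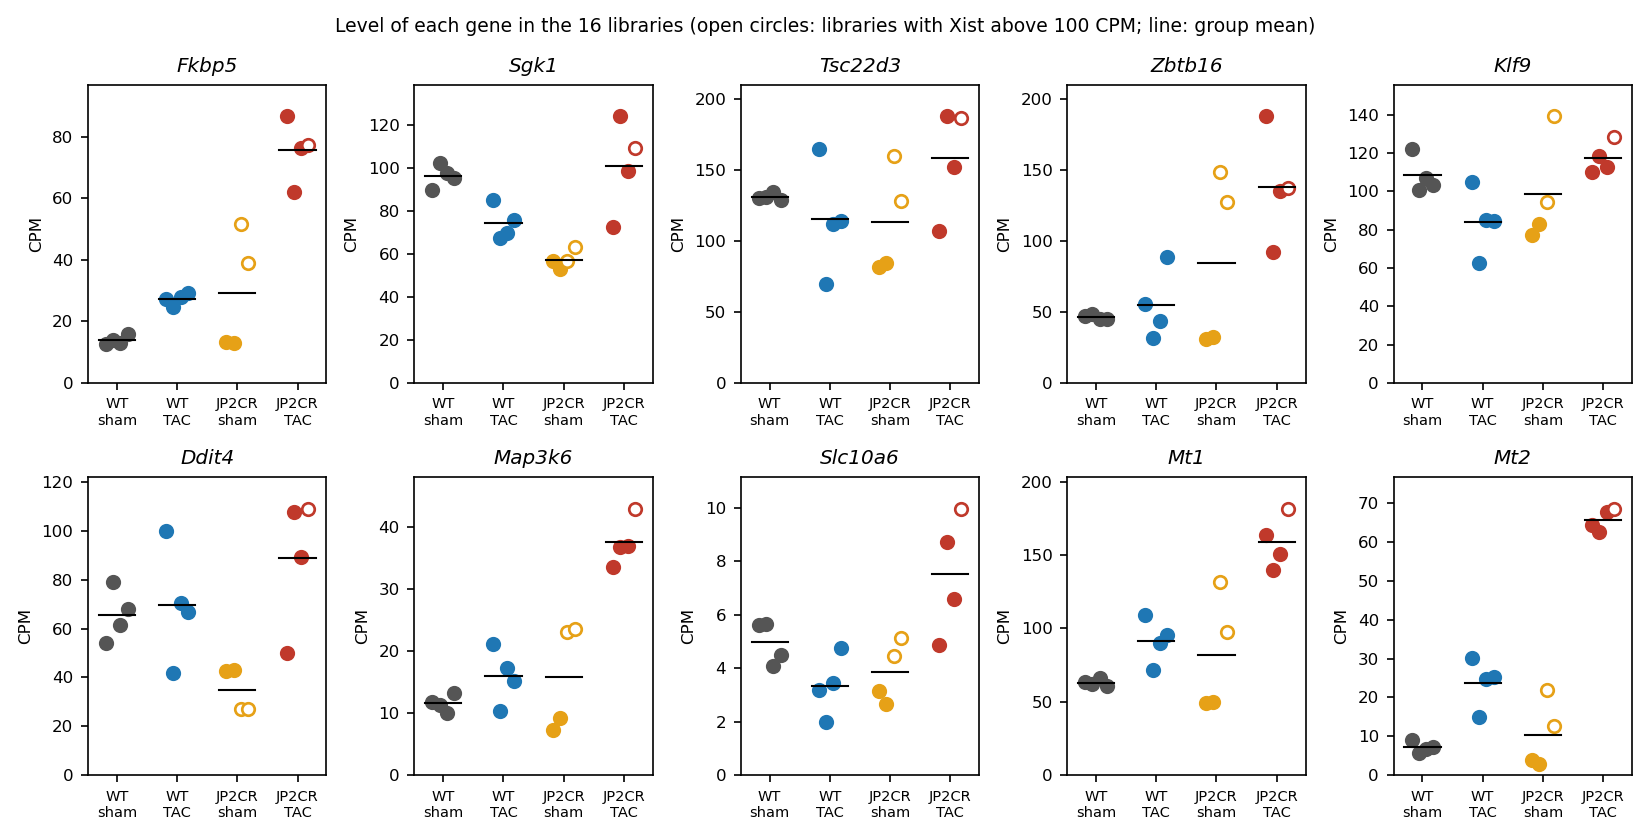
CPM of the 10 genes (vertical axes, linear, from 0) in the 4 groups (horizontal axes). Each circle is a library, lines are group means, and open circles are the 3 libraries with 141 to 196 CPM of Xist. Fkbp5, Map3k6, Mt1 and Mt2 were higher in all 4 JP2CR TAC libraries than in any of the other 12. Fkbp5 and Map3k6 were chosen for a genotype difference, and the share of all genes with this order was not computed.

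Fkbp5 (chr17:28399094-28517527, minus strand) encodes FKBP51, a co-chaperone of the receptor complex that lowers hormone binding and so closes a negative feedback loop. Its level was 12.5, 14.0, 13.03 and 15.8 CPM in WT sham 1 to 4, and 27.4, 24.8, 27.9 and 29.2 CPM in WT TAC 1 to 4. In JP2CR it was 13.3, 12.9, 51.6 and 38.8 CPM in sham 1 to 4, and 86.5, 62.1, 76.2 and 77.3 CPM in TAC 1 to 4. WT sham and WT TAC did not overlap, JP2CR TAC lay above every other library, and JP2CR sham fell into 2 libraries at the WT sham level and 2, both with Xist, above WT TAC. The averaged TAC effect on Fkbp5 was 1.17 ± 0.22 (log2 ± SE, edgeR adjusted p = 0.00021), a 2.25-fold rise. Without the 3 libraries with Xist it was 1.74 ± 0.08 (edgeR adjusted p = 5.96e-11). The groups of that fit are unequal in size, so this p is not free of the genotype differences that chose Fkbp5. As a description, TAC over sham was 0.97 in WT and 1.36 in JP2CR (log2), and the value in JP2CR was 2.52 without the 3 libraries. JP2CR over WT was 1.47 in TAC and 1.46 without the Xist library there, while in sham it was 1.08 with all libraries and -0.09 ± 0.14 without JP2CR sham 3 and 4.

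Sgk1 (chr10:21882184-21999903, plus strand) encodes a kinase that promotes sodium transport and cell survival and is induced by glucocorticoids, mineralocorticoids and cell stress. WT sham 1 to 4 held 90.0, 102, 97.6 and 95.5 CPM and WT TAC 1 to 4 held 85.0, 67.5, 69.9 and 75.9 CPM. JP2CR sham 1 to 4 held 56.8, 53.1, 56.6 and 63.1 CPM and JP2CR TAC 1 to 4 held 72.4, 124, 98.7 and 109 CPM. All 4 WT TAC libraries lay below all 4 WT sham libraries, and all 4 JP2CR TAC libraries lay above all 4 JP2CR sham libraries, so the order of surgery was opposite in the genotypes. JP2CR sham was the lowest group for Sgk1, and its libraries with Xist, at 56.6 and 63.1 CPM, sat with the 2 without. TAC over sham was -0.37 ± 0.12 in WT and 0.82 ± 0.12 in JP2CR (log2 ± SE, description), and the difference between these, 1.19 ± 0.17, was 1.22 ± 0.20 without the 3 libraries with Xist.

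The averaged TAC effect on Sgk1 combined these opposite values into 0.22 ± 0.08 (log2 ± SE, edgeR adjusted p = 0.0302). That call was lost without the 3 libraries with Xist (edgeR adjusted p = 0.0534). It was also lost without WT sham 1, WT TAC 1, JP2CR sham 2, JP2CR TAC 2 or JP2CR TAC 4, each left out alone, with edgeR adjusted p between 0.0567 and 0.0734. JP2CR over WT was -0.75 in sham and 0.44 in TAC (log2). The sham groups did not overlap, and in TAC 1 library, JP2CR TAC 1, lay within the range of WT TAC.

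Map3k6 and Slc10a6 are the other 2 genes that the choice of the set named. Map3k6 (chr4:133240818-133252929, plus strand) encodes a kinase of the stress-activated MAP kinase cascades, and Slc10a6 (chr5:103605711-103629403, minus strand) a membrane carrier for sulfated steroids. Map3k6 was at 11.7, 11.3, 9.93 and 13.2 CPM in WT sham 1 to 4, 21.2, 10.3, 17.2 and 15.2 CPM in WT TAC 1 to 4, 7.27, 9.15, 23.0 and 23.5 CPM in JP2CR sham 1 to 4, and 33.5, 36.8, 36.8 and 42.9 CPM in JP2CR TAC 1 to 4. JP2CR TAC stood above every other library, and JP2CR sham fell into the same 2 pairs as for Fkbp5. For Map3k6 the averaged TAC effect was 0.86 ± 0.20 (log2 ± SE, edgeR adjusted p = 0.00157), and 1.29 ± 0.13 without the 3 libraries with Xist (edgeR adjusted p = 5.15e-07). As for Fkbp5, the p of that unequal fit is not free of the choice by genotype. JP2CR over WT in TAC was 1.24 with all libraries and 1.17 without the Xist library; in sham it was 0.44 with all libraries and -0.51 ± 0.22 without JP2CR sham 3 and 4.

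Slc10a6 was the least abundant of the 10, with 29 to 149 counts a library. It was at 5.62, 5.65, 4.07 and 4.504 CPM in WT sham 1 to 4, 3.18, 1.99, 3.44 and 4.74 CPM in WT TAC 1 to 4, 3.14, 2.65, 4.44 and 5.12 CPM in JP2CR sham 1 to 4, and 4.86, 8.71, 6.56 and 9.96 CPM in JP2CR TAC 1 to 4. JP2CR TAC lay above WT TAC in every library, by as little as 4.86 against 4.74 CPM at the edge, and overlapped JP2CR sham. The averaged TAC effect was 0.19 ± 0.18 (log2 ± SE, edgeR adjusted p = 0.39) and combined -0.59 ± 0.27 in WT with 0.98 ± 0.25 in JP2CR. Slc10a6 had opposite signs in the 2 genotypes, as Sgk1 did, although WT sham and WT TAC overlapped.

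Tsc22d3, Zbtb16 and Klf9 encode transcriptional regulators: Tsc22d3 (chrX:140539528-140600659, minus strand) makes GILZ, a mediator of the anti-inflammatory action of glucocorticoids, Zbtb16 (chr9:48654297-48836222, minus strand) the zinc finger protein PLZF, and Klf9 (chr19:23141226-23168134, plus strand) a Krüppel-like factor. None of the 3 was called for the averaged TAC effect with all libraries, at 0.14 ± 0.16 for Tsc22d3, 0.47 ± 0.29 for Zbtb16 and -0.05 ± 0.11 for Klf9 (log2 ± SE; edgeR adjusted p = 0.476, 0.183 and 0.708). Zbtb16 was called without JP2CR sham 3 (0.70, edgeR adjusted p = 0.0378) and without the 3 libraries with Xist (1.19 ± 0.20, edgeR adjusted p = 0.000105).

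Zbtb16 had the widest spread within a group of the 3. It was at 46.7, 48.2, 44.9 and 44.8 CPM in WT sham 1 to 4 and 55.5, 31.7, 43.2 and 88.3 CPM in WT TAC 1 to 4. It was at 30.8, 32.2, 149 and 127 CPM in JP2CR sham 1 to 4 and 188, 92.1, 135 and 137 CPM in JP2CR TAC 1 to 4. WT TAC spanned the WT sham range on both sides, JP2CR sham 3 and 4 were as high as JP2CR TAC, and JP2CR sham 1 and 2 were below every WT library except WT TAC 2, which lay between them.

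Tsc22d3, which lies on chromosome X, was at 129 to 135 CPM in WT sham. It was at 165, 70.0, 112 and 114 CPM in WT TAC 1 to 4, 81.7, 84.6, 160 and 128 CPM in JP2CR sham 1 to 4, and 107, 188, 152 and 187 CPM in JP2CR TAC 1 to 4. The WT sham libraries were close to each other, WT TAC and JP2CR sham spread to both sides of them, and JP2CR TAC had 1 library below and 3 above. Klf9 ranged from 101 to 122 CPM in WT sham, from 62.3 to 105 in WT TAC, from 77.2 to 139 in JP2CR sham and from 110 to 129 in JP2CR TAC. Its JP2CR TAC libraries lay above all WT TAC libraries and within the combined range of the sham groups.

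Ddit4 (chr10:59949669-59951834, minus strand) encodes REDD1, an inhibitor of mTORC1 signalling that glucocorticoids and hypoxia induce. It was at 54.0, 79.2, 61.3 and 67.9 CPM in WT sham 1 to 4, 99.9, 41.8, 70.3 and 66.8 CPM in WT TAC 1 to 4, 42.8, 43.0, 27.1 and 26.9 CPM in JP2CR sham 1 to 4, and 49.9, 108, 89.4 and 109 CPM in JP2CR TAC 1 to 4. Ddit4 was the 1 gene of the 10 for which JP2CR sham 3 and 4 lay below JP2CR sham 1 and 2, and all 4 JP2CR sham libraries lay below all 4 of WT sham. The averaged TAC effect was 0.72 ± 0.18 (log2 ± SE, edgeR adjusted p = 0.00242). It came to 1.35 ± 0.26 in JP2CR (edgeR adjusted p = 0.000444) and 0.08 ± 0.25 in WT (edgeR adjusted p = 0.823). Without the 3 libraries with Xist the value in JP2CR was 0.94 ± 0.30 (edgeR adjusted p = 0.0227) and the average 0.51 ± 0.19 (edgeR adjusted p = 0.0312).

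Mt1 (chr8:94179082-94180327, plus strand) and Mt2 (chr8:94172664-94173568, plus strand) encode metallothioneins, small cysteine-rich proteins that bind zinc and copper and are induced by both metals and glucocorticoids. Mt2 was at 9.06, 5.77, 6.68 and 7.21 CPM in WT sham 1 to 4 and 30.2, 14.9, 24.7 and 25.4 CPM in WT TAC 1 to 4. In JP2CR it was at 3.85, 2.84, 22.0 and 12.5 CPM in sham 1 to 4 and 64.4, 62.5, 67.8 and 68.6 CPM in TAC 1 to 4. The groups of each genotype did not overlap, and the JP2CR TAC libraries were close to each other and more than 2-fold above every WT TAC library. Averaged over the genotypes, TAC gave Mt2 a 4.54-fold rise (log2 2.18 ± 0.27, edgeR adjusted p = 2.54e-06). It was 1.73 ± 0.40 in WT (edgeR adjusted p = 0.00196) and 2.63 ± 0.37 in JP2CR (edgeR adjusted p = 2.55e-05), where it came to 4.26 ± 0.26 without the 3 libraries with Xist. The annotated exons of Mt2 share 432 bases with Gm45774 on the opposite strand, and the strand setting of the counting is not given in the sources used here.

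Mt1, from the neighbouring gene on chromosome 8, followed the same order at a higher level. It was at 63.8, 61.8, 66.0 and 60.8 CPM in WT sham 1 to 4 and 109, 71.4, 89.8 and 95.9 CPM in WT TAC 1 to 4. In JP2CR it was at 49.4, 49.96, 131 and 97.5 CPM in sham 1 to 4 and 164, 140, 151 and 182 CPM in TAC 1 to 4. No WT TAC library reached down to WT sham, and JP2CR TAC lay above all others. The averaged TAC effect was 0.74 ± 0.16 (log2 ± SE, edgeR adjusted p = 0.000805). It was 0.95 ± 0.23 in JP2CR (edgeR adjusted p = 0.00282), while in WT 0.54 ± 0.23 missed the threshold with all 16 libraries (edgeR adjusted p = 0.0701) and passed it without the 3 libraries with Xist (edgeR adjusted p = 0.000174), which lie in the other genotype and enter through the shared estimate of spread. Per kilobase of annotated exon, Mt1 had the highest mean level of the 10 genes in every group, from 50.6 CPM per kb in WT sham to 128 in JP2CR TAC, and Fkbp5 the lowest in WT sham at 1.46.

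In WT, then, TAC raised 1 of the 6 genes open to a test, Mt2, and lowered none, beside 21.1% and 20.8% of all tested genes (41.9% in either direction). Klf9, Tsc22d3 and Zbtb16 were at -0.37 ± 0.16, -0.19 ± 0.23 and 0.24 ± 0.42 (log2 ± SE, edgeR adjusted p = 0.0685, 0.545 and 0.683). Without the 3 libraries with Xist, Mt1 and Mt2 were called higher in WT and Klf9 lower (-0.37 ± 0.11, edgeR adjusted p = 0.00995). Klf9 was also called lower by DESeq2 (adjusted p = 0.0467), by limma voom (0.0499), in the fit of only the WT groups (0.0212) and without WT TAC 1 (0.0209) or JP2CR sham 4 (0.0155). In JP2CR, TAC raised 3 of the 6, Ddit4, Mt1 and Mt2, and lowered none, beside 20.7% called in each direction over all genes (41.5% in either). Tsc22d3, Zbtb16 and Klf9 were at 0.48 ± 0.23, 0.70 ± 0.40 and 0.26 ± 0.16 in JP2CR (edgeR adjusted p = 0.109, 0.178 and 0.192). Without the 3 libraries with Xist all 6 were called higher in JP2CR, with 35.9% of 13740 genes called in either direction in that fit. It held 2 JP2CR sham and 3 JP2CR TAC libraries, and whether JP2CR TAC 3 is independent of JP2CR TAC 1 and 2 is not known. Zbtb16, Tsc22d3 and Klf9 were then at 2.14 ± 0.33, 0.84 ± 0.25 and 0.51 ± 0.14 (edgeR adjusted p = 8.91e-05, 0.014 and 0.00944). Leaving out JP2CR sham 3 alone gave 5 of the 6, with Zbtb16 and Tsc22d3 added to the 3. The 2 surgery contrasts share no library, but whether a gene's effect differs between the genotypes is part of what chose the set and was not tested for the members.

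Counted by libraries, 3 of the 10 genes were higher in WT TAC than in WT sham with no overlap (Fkbp5, Mt1 and Mt2) and 1 was lower (Sgk1), beside 21% of all tested genes in each direction. In JP2CR, 6 genes were higher in TAC with no overlap (Fkbp5, Sgk1, Ddit4, Map3k6, Mt1 and Mt2) and none lower, beside 16.8% and 17.3% of all tested genes. The plot of fold changes sets these effects beside those of genotype.

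**Figure D2:**
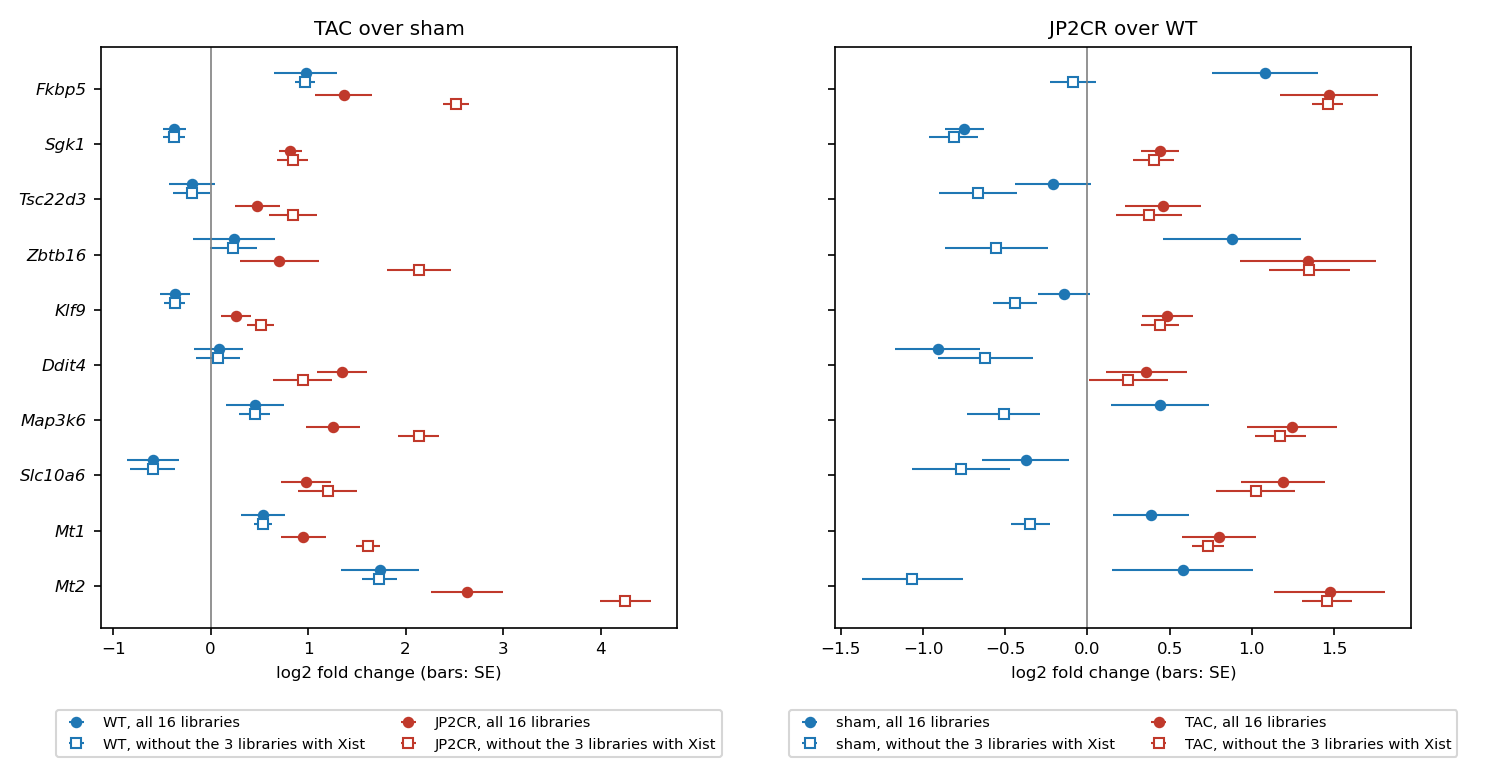
Log2 fold changes (horizontal axes; bars are SE) of the 10 genes for TAC over sham within each genotype (left) and JP2CR over WT within each surgery (right). Filled circles use all 16 libraries and open squares leave out the 3 with Xist: in sham the squares of the JP2CR over WT panel all lie below 0, while in TAC squares and circles nearly coincide.

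The genotype differences follow as a description, since they chose the set. In TAC all 10 genes were higher in JP2CR, with a median of 0.99 (log2) beside -0.0026 over all genes. Log2 values ran from 0.36 for Ddit4 to 1.47 for Fkbp5 and Mt2, with 1.34 for Zbtb16, 1.24 for Map3k6, 1.19 for Slc10a6, 0.80 for Mt1, 0.48 for Klf9, 0.46 for Tsc22d3 and 0.44 for Sgk1. For 7 of the 10 the TAC libraries of the genotypes did not overlap (Fkbp5, Zbtb16, Klf9, Map3k6, Slc10a6, Mt1 and Mt2), beside 3.96% of all tested genes higher and 4.13% lower with no overlap. Without JP2CR TAC 4, which carried Xist, and the sham libraries with Xist, the median was 0.88. The sum of 10 adipocyte markers moved with this difference. It was 348 to 420 CPM in WT TAC and 472 to 617 CPM in JP2CR TAC, with no overlap. Most of that sum was Fabp4, which endothelial cells express too (347 to 409 against 443 to 514 CPM). Beside Fabp4, only Plin1 had no overlap (0.0664 to 0.0838 against 0.161 to 5.55 CPM), and the other adipocyte markers overlapped. Retn and Ucp1 were at 0 in all 4 WT TAC libraries and in 1 and 3 JP2CR TAC libraries. Adipoq was at 0 to 0.642 CPM in WT TAC and 0.161 to 6.08 CPM in JP2CR TAC. The part of adipocyte markers in the genotype differences was not tested. Over all genes 0.651% were called between the genotypes in TAC, 0.0961% in sham and 0.118% for the difference of the TAC effects, with 0.0887% higher and 0.0296% lower for the last.

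In sham the 10 genes divided by library. JP2CR sham 1 and 2 each lay below all 4 WT sham libraries for 9 of the 10 genes, all but Fkbp5. JP2CR sham 3 and 4 each lay above all 4 for 6 genes and below all 4 for 3. The share of all tested genes outside the WT sham range was not computed for single libraries. Adipocyte markers summed to 400.3 and 348 CPM in JP2CR sham 1 and 2 and to 756 and 505 CPM in JP2CR sham 3 and 4, against 397 to 684 CPM in WT sham. With all libraries the median of JP2CR over WT in sham was 0.12 (log2), with 5 positive and 5 negative values, and without JP2CR sham 3 and 4 it was -0.59, with all 10 negative and only Fkbp5, at -0.09, near 0. Mt2, at -1.07 ± 0.31, and Sgk1, at -0.81 ± 0.15, were then the lowest. With all 16 libraries, only Sgk1 and Ddit4 were lower in JP2CR sham with no overlap and none was higher, beside 2.78% and 1.98% of all tested genes. The plot by library gives the position of every gene against WT sham.

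**Figure D3:**
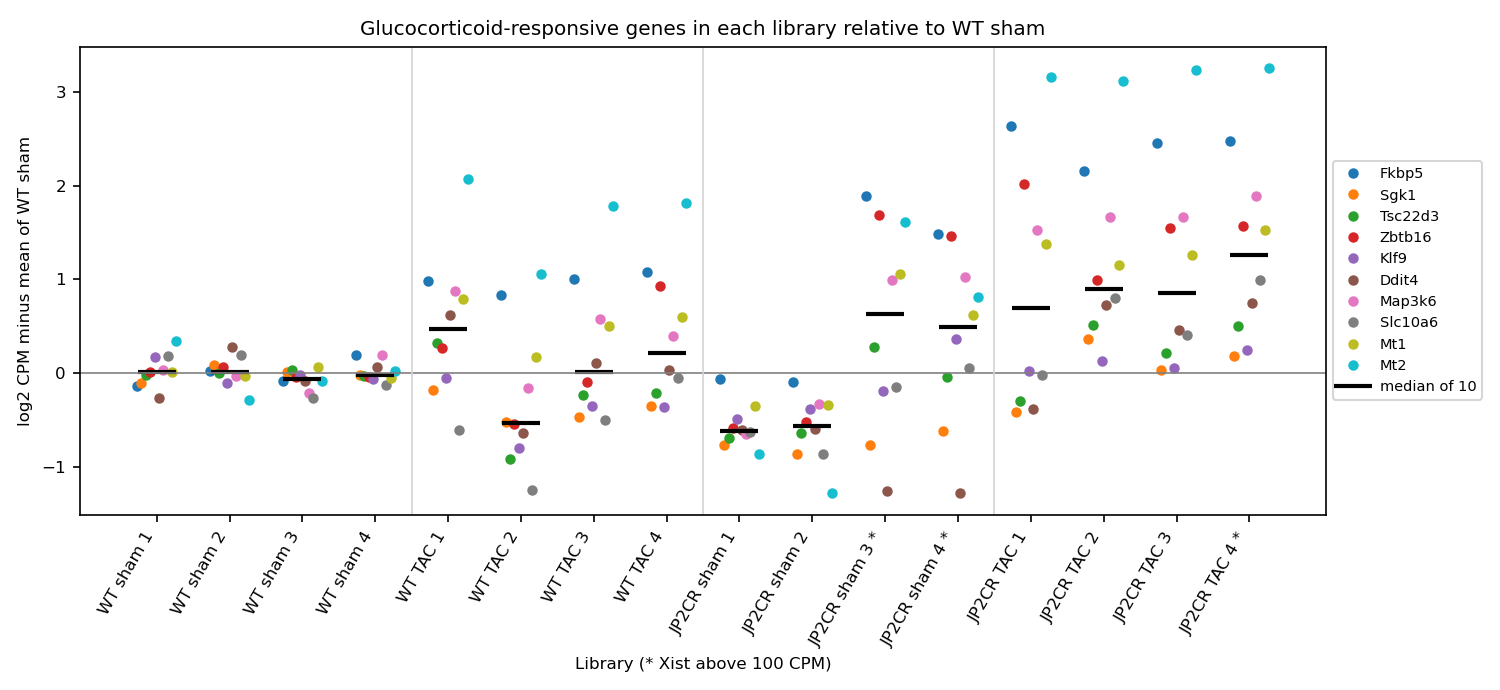
Log2 CPM of each of the 10 genes minus its mean in WT sham (vertical axis) in the 16 libraries (horizontal axis; asterisks mark Xist above 100 CPM). Coloured points are genes and black bars the median of the 10, which is -0.61 and -0.55 in JP2CR sham 1 and 2, 0.64 and 0.50 in JP2CR sham 3 and 4, and 0.70 to 1.26 in JP2CR TAC.

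The TAC libraries were spread as well. The median of the 10 genes against WT sham was 0.47 in WT TAC 1, -0.53 in WT TAC 2, 0.01 in WT TAC 3 and 0.22 in WT TAC 4 (log2). WT TAC 1 lay above all WT sham libraries for 7 genes and below them for 2, and WT TAC 2 above for 3 and below for 6. In JP2CR TAC the medians were 0.70, 0.90, 0.86 and 1.26 in libraries 1 to 4. There 5, 9, 8 and 10 genes were above all of WT sham and 3, 0, 0 and 0 below. No share over all genes was computed for these counts of single libraries. The difference of the TAC effects, JP2CR minus WT, was positive for all 10 genes, with a median of 0.73 (log2), and 1.38 without the 3 libraries with Xist. It ran from 0.39 for Fkbp5 to 1.57 for Slc10a6 with all libraries, and Fkbp5 came to 1.55 and Mt2 to 2.52 without them. The share of these libraries' spread in the genotype differences was not tested.

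Within groups the 10 genes moved together only in part. Pearson's r of the deviations of log2 CPM from the group means over the 16 libraries was positive for 40 of the 45 pairs, with a median of 0.64. The same figures were not computed for pairs of other genes. Pearson's r was highest for Mt1 with Mt2, at 0.96, and Fkbp5 reached 0.93 with Mt1, 0.91 with Mt2 and Zbtb16, and 0.86 with Map3k6. Sgk1 stood outside this group, with 0.03 against Fkbp5 and 0.01 against Zbtb16, but 0.71 with Tsc22d3 and 0.68 with Ddit4. Ddit4 gave the 5 negative pairs, down to -0.45 with Fkbp5.

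Most values with Fkbp5 were lower in a smaller set of libraries, but that with Ddit4 went from -0.45 to -0.16. Without the 3 libraries with Xist the median over pairs was 0.46, with 38 positive, and Fkbp5 with Mt1 was 0.41, with Mt2 0.19, with Map3k6 0.25 and with Zbtb16 0.68. Mt1 with Mt2 was then 0.75, and Sgk1 with Fkbp5 -0.52. These coefficients describe libraries that share tissue, depth and any imbalance of dissection, and carry no test.

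**Figure D4:**
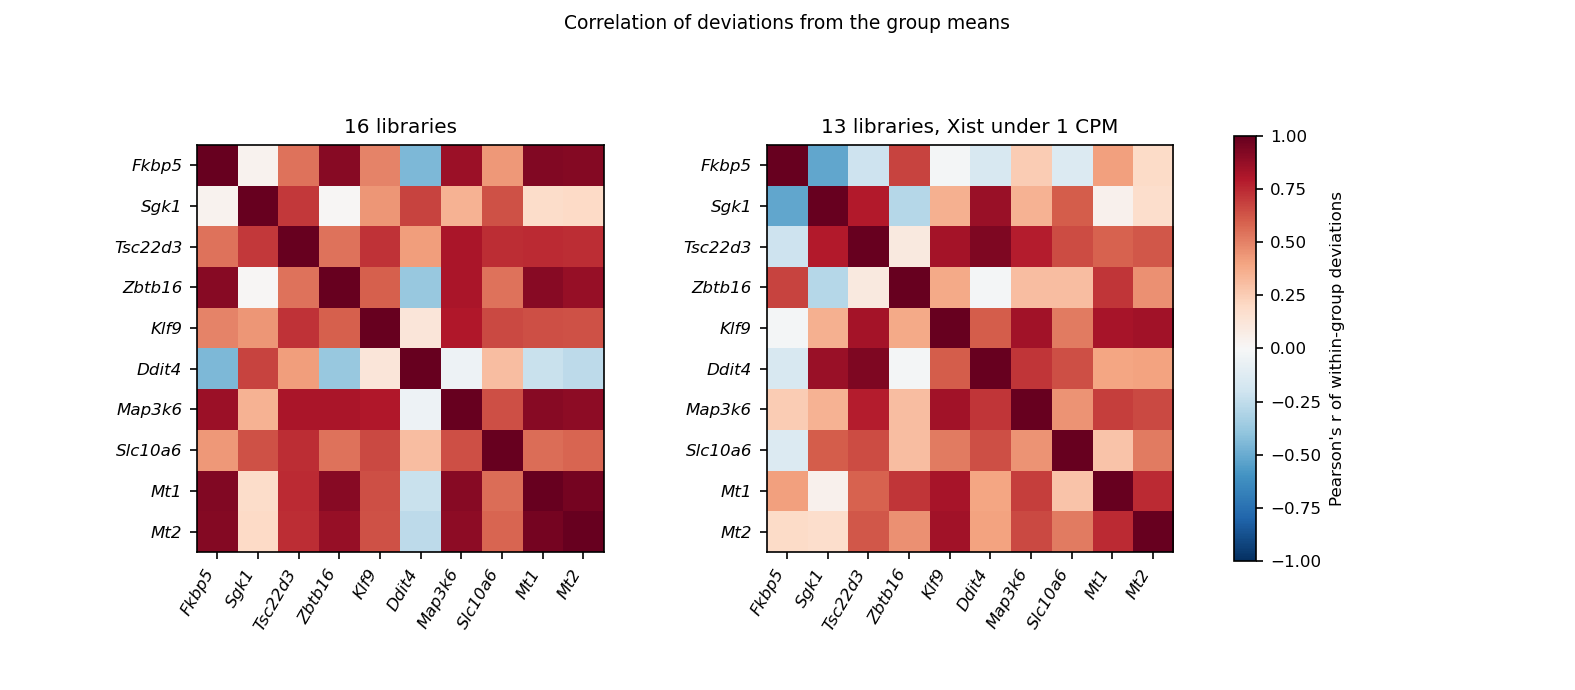
Pearson's r (colour, -1 to 1) between the within-group deviations of log2 CPM for each pair of the 10 genes, over all 16 libraries (left) and over the 13 libraries with Xist under 1 CPM (right). The block of Fkbp5, Zbtb16, Map3k6, Mt1 and Mt2 on the left fades on the right, while Tsc22d3 with Ddit4 darkens to the highest value, 0.93.

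Among 11586 other genes, those whose within-group deviations were most like those of Fkbp5 over the 16 libraries were Synpo (r = 0.97), Ctsa (0.97), Ly6a (0.95), Kdm5c (0.95), Ywhag (0.95) and Chd6 (0.94). Synpo encodes an actin-associated protein, Ctsa a lysosomal carboxypeptidase, Ly6a a surface antigen of endothelial and progenitor cells, Kdm5c an X-linked histone demethylase, Ywhag a 14-3-3 protein and Chd6 a chromatin remodeller. All 6 had a higher mean in JP2CR sham 3 and 4 than in JP2CR sham 1 and 2, for Synpo 190.2 against 107 CPM and for Kdm5c 136 against 75.8 CPM. Fkbp5 had the same division, so picking genes by likeness to it largely fixed this in advance. Without the 3 libraries with Xist the same coefficients were 0.69 for Synpo, 0.47 for Ctsa, 0.26 for Ly6a, 0.48 for Kdm5c, 0.74 for Ywhag and 0.49 for Chd6.

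The receptor gene was called higher with TAC, and its partner genes went both ways. Of 16 receptor, chaperone and coregulator genes, 5 rose, 3 fell and 8 were not called in the averaged comparison. That is near the 54.8% called over all genes, and the median was 0.06 (log2). Without the 3 libraries with Xist 7 rose and 3 fell, beside 53% of all genes called. Nr3c1, which encodes the glucocorticoid receptor, was at 94.4 to 102 CPM in WT sham, 132 to 139 in WT TAC, 86.5 to 114 in JP2CR sham and 122 to 125 in JP2CR TAC. It rose by 0.42 ± 0.05 (log2 ± SE, edgeR adjusted p = 6.47e-07), and neither genotype's TAC libraries overlapped its sham libraries. Hsp90aa1, a heat shock protein of the receptor complex, rose by 0.75 ± 0.08 (edgeR adjusted p = 2.78e-07), and the corepressor gene Nrip1 by 1.04 ± 0.15 (edgeR adjusted p = 1.08e-05). Fkbp4, the co-chaperone FKBP52 that favours receptor transport and is the counterpart of FKBP51, was at 439 to 465 CPM in WT sham and 254 to 278 CPM in WT TAC, with 425 to 452 and 219 to 305 CPM in JP2CR. It fell by 0.79 ± 0.05 on the log2 scale (edgeR adjusted p = 1.9e-09), the opposite direction to Fkbp5.

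Steroid handling gave 0 higher and 2 lower of 5 tested genes in the average, where 54.8% of all genes were called. Hsd11b1, whose enzyme regenerates active corticosterone inside cells, was at 16.4 to 18.4 CPM in WT sham and 8.76 to 10.96 CPM in WT TAC. In JP2CR it was at 18.1, 17.3, 11.7 and 9.10 CPM in sham 1 to 4 and 10.0 to 11.6 CPM in TAC, so JP2CR sham 3 and 4 sat at the TAC level. It fell by 0.59 ± 0.11 (log2 ± SE, edgeR adjusted p = 0.000225). Hsd11b1 was called in WT (edgeR adjusted p = 0.00053) and not in JP2CR (0.0621), and the difference was not called (0.552). H6pd, which supplies the cofactor of that enzyme, fell by 0.28 ± 0.05 (edgeR adjusted p = 0.000314). The steroid exporter genes Abcb1a and Abcb1b were at -0.15 ± 0.06 and 0.12 ± 0.08 in the average (edgeR adjusted p = 0.05 and 0.199). Abcb1a was called lower without the 3 libraries with Xist (edgeR adjusted p = 0.00954), which makes 3 lower of 5, and leaving out WT TAC 2, JP2CR sham 4, JP2CR TAC 2 or JP2CR TAC 4 alone changed its call (edgeR adjusted p between 0.0147 and 0.103 over all 16).

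Other genes that glucocorticoids induce went both ways. Of 29 tested, 8 rose and 5 fell in the averaged comparison, where 54.8% of all genes were called, with a median of 0.05 (log2). In WT 6 were higher and 6 lower, with a median of -0.16, beside 41.9% of all genes called. In JP2CR 13 were higher and 3 lower, with a median of 0.46, beside 41.5% called. Without the 3 libraries with Xist the counts were 8 and 10 in WT, beside 45.8% called. In JP2CR they were then 12 and 4, beside 35.9% called. Anxa1, an anti-inflammatory phospholipid-binding protein, rose by 0.73 ± 0.07 and the cell cycle inhibitor gene Cdkn1a by 1.10 ± 0.11 in the average (edgeR adjusted p = 1.79e-07 and 2.89e-07). Lpin1, a phosphatidate phosphatase gene, fell by 0.32 ± 0.04 (edgeR adjusted p = 2.34e-06). Dusp1, a MAP kinase phosphatase gene singled out after its values were seen, was called lower in WT (-0.46 ± 0.18, edgeR adjusted p = 0.0439) and higher in JP2CR (0.56 ± 0.18, edgeR adjusted p = 0.0179), and the difference of 1.02 ± 0.25 was not called (edgeR adjusted p = 0.113). The Dusp1 call in JP2CR was lost without the 3 libraries with Xist (edgeR adjusted p = 0.169) and without JP2CR sham 3, JP2CR TAC 2 or JP2CR TAC 4 (highest adjusted p 0.083), and the call in WT without any of 10 single libraries, each WT library among them (highest adjusted p 0.105). The plot of these 29 genes shows both effects.

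**Figure D5:**
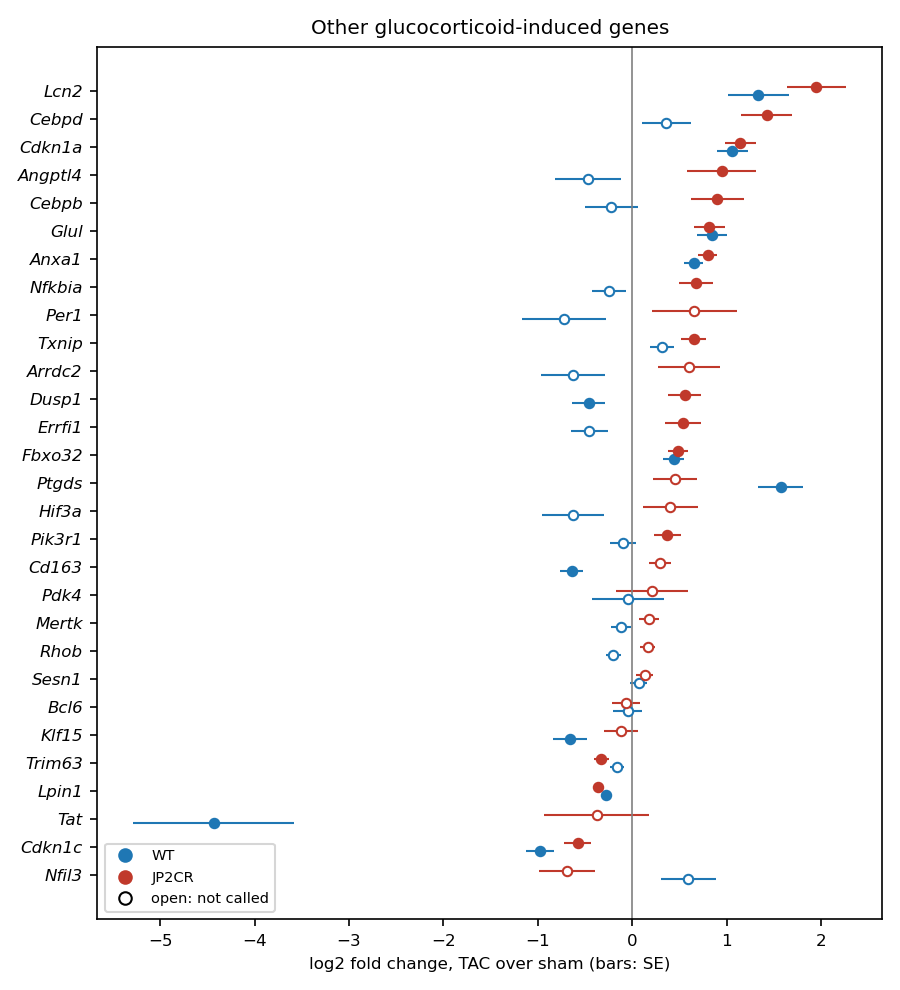
Log2 fold change of TAC over sham (horizontal axis; bars are SE) of the 29 other glucocorticoid-induced genes (vertical axis) in WT (blue) and JP2CR (red), with filled circles for genes called by edgeR. Anxa1 and Cdkn1a were called higher in both genotypes, and Dusp1 was called in opposite directions.

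Cd163, a scavenger receptor gene of macrophages that glucocorticoids induce, was the only one of 91 tested pathway genes outside the set whose difference of TAC effects edgeR called with all 16 libraries. That count was 3 by DESeq2, 9 without the 3 libraries with Xist, 0 to 6 over single libraries left out, with 6 without JP2CR TAC 1, and 0 without replicate 3 of both TAC groups. It was at 20.1, 21.1, 22.0 and 19.3 CPM in WT sham 1 to 4 and 11.1, 14.2, 13.5 and 14.1 CPM in WT TAC 1 to 4. In JP2CR it was at 19.0, 18.2, 24.5 and 29.2 CPM in sham 1 to 4 and 27.0, 27.4, 26.5 and 30.3 CPM in TAC 1 to 4. WT TAC was the lowest group and did not overlap any other, and the JP2CR TAC libraries lay above all WT libraries. The difference of TAC effects was 0.94 ± 0.17 (log2 ± SE, edgeR adjusted p = 0.0398), and JP2CR over WT in TAC was 1.07 ± 0.12 (edgeR adjusted p = 0.000579). For the difference the call held without JP2CR sham 3, JP2CR sham 4, JP2CR TAC 1 or WT TAC 1 and was lost without any 1 of the other 12 libraries, with edgeR adjusted p between 0.00416 and 0.0899 over all 16. It was 0.000536 without the 3 libraries with Xist and 0.177 without WT TAC 3 and JP2CR TAC 3. The 7 macrophage markers summed to 251 to 268 CPM in WT TAC and 255 to 314 CPM in JP2CR TAC, with none at 0 in any library, and their part in this difference was not tested.

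Between the genotypes 3 of the 91 genes were called in TAC, all higher in JP2CR, and these were named after their values were seen: Cd163, Pik3r1 (0.70 ± 0.14, edgeR adjusted p = 0.0313), a regulatory subunit of PI3 kinase, and Klf13 (0.56 ± 0.12, edgeR adjusted p = 0.0403), a paralog of Klf9. The calls of Pik3r1 and Klf13 were lost without 7 and 10 of the single libraries (highest adjusted p 0.115 and 0.124), the TAC replicates 3 and 4 of both genotypes among them, and both held without the 3 libraries with Xist (edgeR adjusted p = 0.00403 and 0.00185). In sham edgeR called none of the 91, while 18 had an unadjusted p under 0.05 and DESeq2 called 1.

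Most of the inflammatory genes that glucocorticoids repress rose with TAC. Of 10 tested, 7 rose and none fell in the average, beside 27.1% of all genes higher and 27.6% lower. The median was 0.53 (log2). In WT 3 rose and in JP2CR 4, beside 21.1% and 20.7% of all genes called higher. The counts without the 3 libraries with Xist were 7 higher and 1 lower in the average and 4 and 1 in JP2CR. The cytokine gene Il1b rose by 1.31 ± 0.22 (edgeR adjusted p = 6.08e-05), from 0.807 to 1.11 CPM in WT sham and 0.357 to 0.555 CPM in JP2CR sham to 1.05 to 2.72 CPM over the TAC libraries. The adhesion molecule gene Icam1 rose by 0.39 ± 0.08, the chemokine gene Cxcl1 by 0.80 ± 0.20 and the prostaglandin synthase gene Ptgs2 by 1.33 ± 0.34 (edgeR adjusted p = 0.000258, 0.0029 and 0.00273). Icam1 was called in WT (edgeR adjusted p = 0.000286) and not in JP2CR (0.133). Ptgs2 was called in JP2CR (edgeR adjusted p = 0.00376) and not in WT (0.197). Neither difference of TAC effects was called (edgeR adjusted p = 0.372 and 0.652). Cxcl1 was called in JP2CR (1.52 ± 0.29, edgeR adjusted p = 0.000445) and was at 0.08 ± 0.28 in WT (edgeR adjusted p = 0.851), and the difference of its TAC effects was not called (edgeR adjusted p = 0.168). Lymphocyte markers summed to 30.1 CPM in JP2CR TAC 1 and 14.8 CPM in JP2CR TAC 3 against 2.84 to 6.78 CPM in the other 14 libraries. The 4 neutrophil markers summed to 2.16 to 3.02 CPM in sham and 3.98 to 16.7 CPM in TAC with no overlap, and of these Retnlg was at 0 in 4 libraries. The sum of the macrophage markers was higher in every TAC library as well, as given above. The part of all these cells in the changes was not tested.

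Paralogs of the 10 genes moved in both directions. Of 12 tested paralogs 2 rose and 5 fell in the average, 7 of 12 beside 54.8% called over all genes. Ddit4l, the paralog of Ddit4, fell by 1.74 ± 0.24 on the log2 scale (edgeR adjusted p = 9.85e-06), from 5.37 to 8.01 CPM in WT sham to 1.24 to 1.73 CPM in WT TAC, and from 2.30 to 8.41 CPM in JP2CR sham to 1.37 to 2.39 CPM in JP2CR TAC. Tsc22d4 fell by 0.45 ± 0.05 (edgeR adjusted p = 9.44e-07), and Slc10a3 rose by 0.46 ± 0.07 (edgeR adjusted p = 3.05e-05).

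Of 7 tested metal-responsive genes beside Mt1 and Mt2, 5 rose and 1 fell in the average, where 54.8% of all genes were called. Hmox1, the haem oxygenase gene, rose by 0.78 ± 0.14, the zinc importer gene Slc39a14 by 0.35 ± 0.07 and the zinc exporter gene Slc30a1 by 0.24 ± 0.06 (edgeR adjusted p = 0.000104, 0.000521 and 0.00249). Slc30a1 was called in JP2CR (edgeR adjusted p = 0.00249) and not in WT (0.279), and the difference was not called (0.516). Hmox1 in JP2CR sham was at 6.92, 7.78, 14.1 and 11.7 CPM in libraries 1 to 4, and Slc39a14 at 78.5, 79.9, 119 and 112 CPM, so both had the division of that group seen for Mt1 and Mt2. Mt3, a low metallothionein gene at 0.133 to 2.30 CPM, fell by 1.35 ± 0.35 on the log2 scale (edgeR adjusted p = 0.0032). Its effect was called in WT (edgeR adjusted p = 0.00166) and not in JP2CR (0.419), and the difference was not called (0.407).

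Clock genes, several of which control or are controlled by glucocorticoids, varied widely within groups. Of 14 tested, 2 rose and 1 fell in the average, where 54.8% of all genes were called. Without the 3 libraries with Xist 4 rose and 1 fell, beside 53% of all genes called. In WT 1 rose and 2 fell, beside 41.9%, and 3 and 3 without those libraries, beside 45.8%. In JP2CR 1 rose and none fell, beside 41.5%, and 5 and 2 without those libraries, beside 35.9%. Hlf, a clock output factor, was at 48.3 to 67.7 CPM in WT sham, 36.7, 10.3, 21.3 and 18.1 CPM in WT TAC 1 to 4, 28.4, 34.4, 72.2 and 59.5 CPM in JP2CR sham 1 to 4 and 18.6, 39.4, 31.0 and 48.8 CPM in JP2CR TAC 1 to 4. It fell by 0.97 ± 0.24 (log2 ± SE, edgeR adjusted p = 0.00205). Hlf was called in WT (edgeR adjusted p = 0.00233) and not in JP2CR (0.244), and the difference was not called (0.519). JP2CR sham again fell into the pairs 1 and 2, and 3 and 4. Clock rose by 0.50 ± 0.14 and Bhlhe41 by 0.35 ± 0.14 (edgeR adjusted p = 0.00696 and 0.0369). The Bhlhe41 call was lost without any of 9 single libraries (highest adjusted p 0.096) and kept without the 3 libraries with Xist (0.00334). Clock was called in WT (edgeR adjusted p = 0.0192) and not in JP2CR (0.155). Bhlhe41 was called in JP2CR (edgeR adjusted p = 0.0116) and not in WT (0.885). Neither difference was called (edgeR adjusted p = 0.831 and 0.43). Nr1d1 fell in WT (-0.85 ± 0.27, edgeR adjusted p = 0.0162), a call lost without WT TAC 2 (0.0571), and spanned 60.7 to 223 CPM in JP2CR sham. Per1, another target of both systems and named after its values were seen, was at 158, 17.1, 86.2 and 69.8 CPM in WT TAC 1 to 4 and at 61.9, 144, 106 and 152 CPM in JP2CR TAC 1 to 4. The part of clock gene levels in the spread of the 10 genes was not tested.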

How the data were processed

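Stranded polyA libraries of ventricle were sequenced, per the labels' protocols. The values used are raw counts of reads per gene, deposited by the authors without normalization. According to the submitters' processing notes the tools were FastQC 1.0.0, Picard 1.128, DESeq2 1.6.3, Cufflinks 2.2.1, bedtools 2.17.0 and STAR 2.5.0b, with the mm10 build; what counted the reads, and whether by strand, is not given in the sources used here. Fold change columns of the authors were left out. Genes were filtered with filterByExpr by group, libraries were scaled by TMM, and 1 mean for each group was fitted to the 16 libraries in edgeR 4.0.16 (R 4.3.3). Contrasts were tested with the quasi-likelihood F test and adjusted by Benjamini-Hochberg over the 13522 genes at a threshold of 0.05. CPM are counts scaled by the TMM-adjusted total, and 3 counts correspond to 0.185 to 0.314 CPM, which covers counting error only. An SE is the log2 fold change divided by the square root of F. Deviations for correlations used log2 CPM with a prior count of 2.

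The 10 genes and all gene lists were chosen with earlier results of these data known. Of the lists, 98 genes outside the set were in the table and 91 were tested. Up to 4 genes of a list were named by smallest p, as were the 6 genes most like Fkbp5 by correlation, among genes averaging 1 or more in log2 CPM and without a predicted-gene symbol. Groups and replicate numbers came from the sample titles. Alternatives were DESeq2 1.42.0, limma 3.58.1 voom, RLE and upper-quartile factors, no filter, a filter of 1 CPM in 8 libraries, a fit to the compared groups alone, a block for the replicate number, a threshold of 0.01, each library left out, the 3 libraries with Xist left out, and WT TAC 3 with JP2CR TAC 3 left out. Leaving out WT sham 3 with these 2 was added after seeing the data. The fits were tested on simulated counts. Promoters are from RefSeq, and gene positions and exon lengths from GENCODE, both on GRCm38. Figures were drawn with matplotlib 3.10.9.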

Additional observations from a re-analysis of the deposited data

Results flagged for a closer look

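The TAC effect on Sgk1 differed in direction between the genotypes: every WT TAC library lay below every WT sham library, and every JP2CR TAC library above every JP2CR sham library. The difference of the effects, JP2CR minus WT, was 1.19 (log2). This difference was not tested, since a difference by genotype chose Sgk1. Cd163 had a difference of TAC effects of 0.938 (log2, edgeR adjusted p = 0.0398 for the difference itself), with WT TAC lower than WT sham in 4 of 4 libraries.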

How the results depend on the processing

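For the averaged TAC effect 6 of the 10 genes were called higher with all 16 libraries, with 5 to 7 over every alternative and none called lower in any. For TAC in WT, 1 was called higher and 0 lower; DESeq2 and voom called 1 lower (Klf9), and the fit of only the groups compared and the fit without the libraries with Xist called 2 higher (Mt1 added) and 1 lower. Leaving out single libraries gave 1 to 2 higher and 0 to 1 lower. For TAC in JP2CR, 3 were called higher and 6 without the libraries with Xist, with 3 to 5 over single libraries left out; the median of the 10 genes there went from 0.96 to 1.41. The median of JP2CR over WT in sham was 0.12, -0.59 without the libraries with Xist and -0.18 to 0.25 over single libraries left out; that of the difference of TAC effects was 0.73 and 1.38. The median correlation was 0.638 and 0.458.

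Of the 91 other pathway genes, in sham 0 were called between the genotypes by edgeR, 1 by DESeq2, 2 in the fit of only the groups compared and 1 without the libraries with Xist (0 to 2 over single libraries left out). In TAC the counts were 3, then 1 at a threshold of 0.01, 9 without the libraries with Xist and 1 without WT TAC 3 and JP2CR TAC 3, with or without WT sham 3 left out too (1 to 5 over single libraries). For the difference of TAC effects they were 1, then 3 by DESeq2, 0 at a threshold of 0.01, 9 without the libraries with Xist and 0 without both TAC replicates 3, with or without WT sham 3 left out too (0 to 6 over single libraries). The cause of these shifts was not tested. Replicate numbers showed no pairing: correlations of same-numbered libraries ran from -0.16 to 0.21 over 24 pairs, 6 of them over 0.1, and 3 of 16 libraries were nearest their own number. With the replicate block the averaged TAC effect again gave 6 of the 10 genes called higher, and no count above moved by more than 1.5 times. No call of the 10 genes changed direction under any alternative. For the 91 other pathway genes the direction of each call was not compared across the alternatives. The 4 libraries a group and the division of JP2CR sham limit what these data resolve, and genes near the floor, such as Mt3 and Il1b, are limited by depth.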
